A study of Rattus norvegicus with 20 samples.

Results

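A set of 38 genes that code for the enzymes, transporters and regulators of glycolysis and glycogen metabolism was followed in the gastrocnemius muscle of tumour-bearing rats. The members were fixed by gene symbol and not by a cut on measured values, but earlier results of these data were known when the list was chosen. Of the 38 symbols, 37 had a row in the count table, among 32495 rows with a gene name, and all 37 passed the filter on low counts, as did 11716 genes in all. Gapdh was not analysed here.

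All animals were female Fischer 344 rats that bore the Ward colorectal carcinoma. Treatment began after 2 weeks of tumour growth, and the set holds no tumour-free animals. The methods state the age of the rats without a unit. TUMOUR STD animals (5 samples) received no chemotherapy and ate the standard semipurified diet. CHEMO STD animals (7 libraries, 6 samples) ate the same diet and received 2 cycles of CPT-11, each followed a day later by 5-FU at 50 mg/kg. CHEMO FO animals (8 samples) received the same 2 cycles and were switched, when chemotherapy began, to an isocaloric diet containing fish oil as a source of EPA and DHA. The gastrocnemius was taken 7 days past the final cycle, and its RNA was measured by rRNA-depleted, stranded total RNA sequencing. The chemotherapy arms therefore differ from each other in diet, CHEMO STD differs from TUMOUR STD in chemotherapy, and CHEMO FO differs from TUMOUR STD in both.

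Skeletal muscle draws quick energy from glucose and from its own glycogen store. Glucose enters the fibre through GLUT4 (Slc2a4) and GLUT1 (Slc2a1), is trapped by hexokinase, and is split to pyruvate, which is either reduced to lactate or passed to the mitochondria by pyruvate dehydrogenase. Glycogen is built by glycogen synthase (Gys1) and broken down by muscle glycogen phosphorylase (Pygm), with regulatory subunits that dock a phosphatase on the glycogen particle. Many steps have a muscle isoform (Pfkm, Pgam2, Eno3, Ldha) and an isoform found in other cells or in more oxidative fibres (Pfkl, Pgam1, Eno1, Ldhb), and fast fibres are rich in the muscle isoforms.

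Levels are given in CPM (read counts scaled to a common library size by the TMM method) and are compared between samples only, since gene lengths were not used. Libraries held 3023899 to 10887041 counts. CHEMO STD replicates 1 and 2 differed by less than other pairs (chi-square per gene 2.23, against 13.7 to 255 in the other 58 pairs within a group), were counted as 1 sample, and had their counts summed. Nothing in the labels says that the other samples came from separate animals, so the p-values measure the spread between these samples. In whole muscle, fewer cells of a type and less RNA per cell cannot be told apart. The tissue label was checked on muscle genes (Acta1, Ckm, Des and Mb), whose summed level was between 46648 and 112969 CPM in every sample. The 37 members took 6.49% ± 0.721 of named counts in TUMOUR STD (SD, n = 5), 6.85% ± 0.582 in CHEMO STD (n = 6) and 6.86% ± 0.983 in CHEMO FO (n = 8).

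Promoters are shown for 4 members that the results below turn on. Pfkfb3 was called in 2 comparisons, more than any other member, Ppp1r3c had the smallest p of any member, and Pgam2 and Pgam1 are isoforms of the same enzyme that lay at opposite extremes in 1 library. The sequences are the RefSeq windows from 250 bases before to 50 bases after the annotated start on GRCr8, written 5′ to 3′ on the gene's strand, with ACGTG (either strand) and TATAAA (either strand) in capitals. A CACGTG holds ACGTG on both strands and counts as 2 matches. The count files use another build, so no coordinate was carried over.
Ppp1r3c (chr1:243878478-243878777, minus strand): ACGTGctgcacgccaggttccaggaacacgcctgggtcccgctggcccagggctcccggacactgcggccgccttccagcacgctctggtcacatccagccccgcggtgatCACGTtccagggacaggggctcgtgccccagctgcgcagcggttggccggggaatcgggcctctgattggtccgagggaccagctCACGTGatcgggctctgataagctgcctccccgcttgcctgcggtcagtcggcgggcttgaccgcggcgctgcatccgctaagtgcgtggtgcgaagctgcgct
Pfkfb3 (chr17:71944683-71944982, plus strand): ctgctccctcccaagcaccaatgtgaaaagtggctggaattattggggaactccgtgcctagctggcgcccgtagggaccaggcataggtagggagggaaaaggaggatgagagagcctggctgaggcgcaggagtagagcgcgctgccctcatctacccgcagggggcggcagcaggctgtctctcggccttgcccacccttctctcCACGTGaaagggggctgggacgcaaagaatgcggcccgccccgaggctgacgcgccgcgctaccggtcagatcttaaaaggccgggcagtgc
Pgam2 (chr14:84897825-84898124, minus strand): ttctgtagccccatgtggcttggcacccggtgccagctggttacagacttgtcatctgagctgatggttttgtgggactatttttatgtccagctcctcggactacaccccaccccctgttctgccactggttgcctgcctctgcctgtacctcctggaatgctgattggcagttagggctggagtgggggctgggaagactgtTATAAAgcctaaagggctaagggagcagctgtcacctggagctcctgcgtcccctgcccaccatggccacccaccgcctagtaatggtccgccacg
Pgam1 (chr1:250672902-250673201, plus strand): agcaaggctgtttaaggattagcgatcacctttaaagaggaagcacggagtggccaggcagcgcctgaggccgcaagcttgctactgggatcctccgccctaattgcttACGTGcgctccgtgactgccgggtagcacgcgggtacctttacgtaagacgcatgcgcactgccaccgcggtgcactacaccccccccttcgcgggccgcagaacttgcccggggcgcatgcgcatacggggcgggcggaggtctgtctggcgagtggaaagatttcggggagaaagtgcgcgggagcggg
The Ppp1r3c window holds 4 ACGTG matches and the Pfkfb3 window 2, both including a CACGTG. The Pgam2 window has a TATAAA and 6 CG pairs, whereas the Pgam1 window has no TATAAA, 1 ACGTG and 30 CG pairs. The median over all 33469 RefSeq windows was 7 CG pairs. Windows were found for 34 of the 38 members, 30 of them with a single entry. ACGTG was present in 15 of these 30 (50%), against 19.3% of all windows and 26.1% of the windows of tested genes. TATAAA was present in 6 of the 30 (20%), against 14.2% of all windows and 6.66% of those of tested genes. The E-box CANNTG was found in 21 of the 30 (70%), against 72.1% of all windows and 61.7% of those of tested genes. The 2 motifs CACGTG and CANNTG overlap, so a CACGTG counts for both ACGTG and the E-box. A match is a run of letters and not a site shown to be used.

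CHEMO FO replicate 18 stood apart from all other samples in these genes, so the fold changes named in comparisons with CHEMO FO are given with and without it. It was the lowest of 19 samples for 22 of the 37 members (59.5%, against 18.2% of all genes tested) and the highest for 4, while no other sample was lowest for more than 3 members. The median member lay at 55.0% of the median of the other 7 CHEMO FO samples, against 100.5% for the median gene of all tested, and 16 members (43.2%, against 11.5% of all genes) were under 50%. Its depth of 9130631 counts was the greatest in its group.

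**Figure D1:**
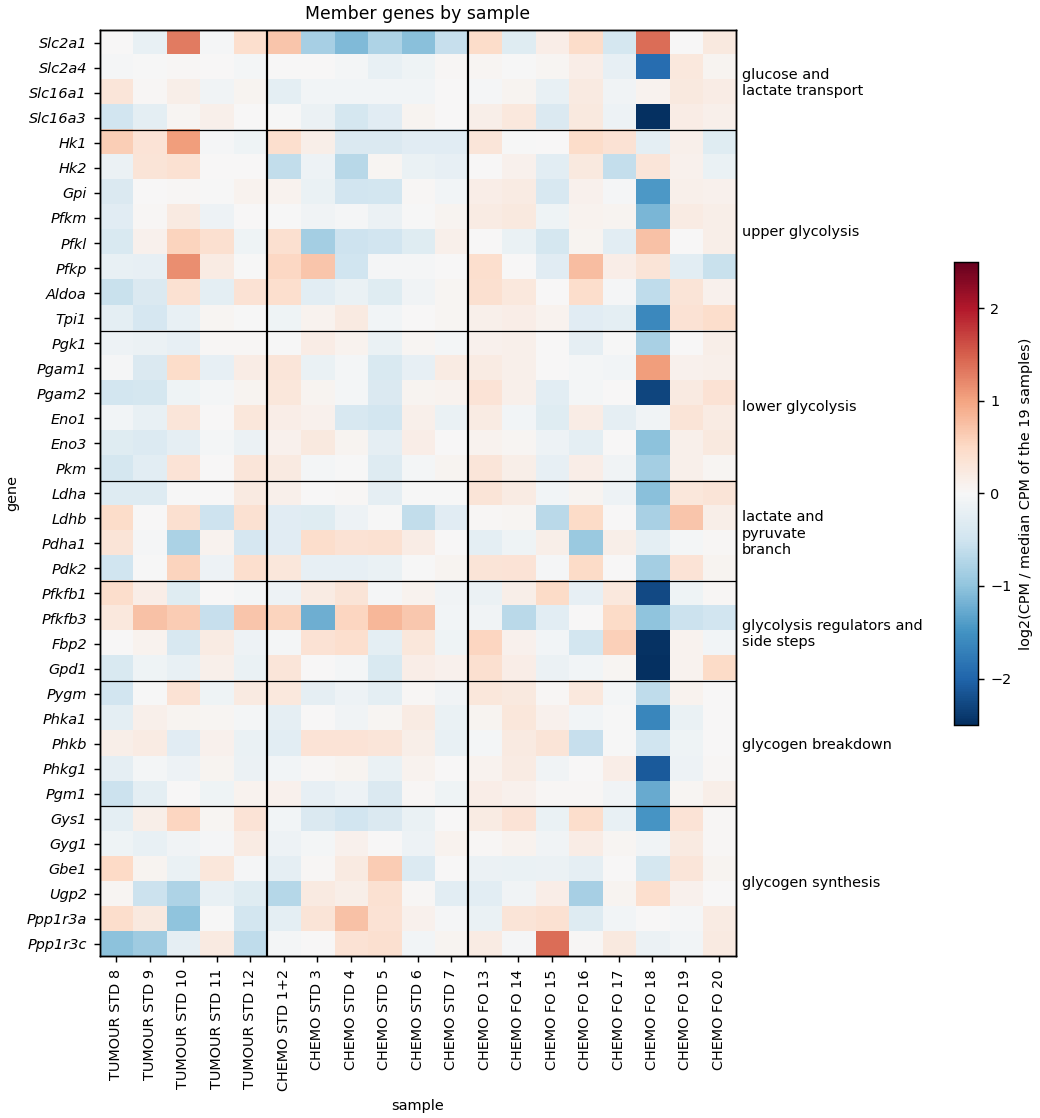
Heat map of the 37 measured members (rows, grouped by role) in the 19 samples (columns). Colour is the log2 ratio of a sample's CPM to the gene's median over the 19 samples. CHEMO FO 18 forms a mostly blue column. It was the highest sample for 4 genes, Slc2a1, Pfkl, Pgam1 and Ugp2, and some others, such as Hk2 and Pfkp, are also above the median. Colours saturate at the ends of the scale.

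Transport genes separated in that library. Slc16a3, the lactate exporter MCT4 of glycolytic fibres, was at 32.3 CPM against 241 to 373 in the other CHEMO FO samples, or 9.30% of their median. Slc2a4, the insulin-responsive glucose transporter, was at 124 CPM against 405 to 555. Slc16a1, the lactate transporter MCT1 of oxidative fibres, was at 94.6 CPM, inside the range of 78.6 to 105. Slc2a1, the basal glucose transporter, was the highest of all samples at 10.0 CPM against 2.81 to 5.27.

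Glycolytic steps were uneven in that library. Pgam2, the muscle phosphoglycerate mutase, was at 724 CPM against 2950 to 4527, while its counterpart Pgam1 was at 60.9 CPM against 28.1 to 33.7. The Pgam2 to Pgam1 ratio was therefore 11.9 in this library and 81.4 to 145 in the other 18 samples. Muscle phosphofructokinase Pfkm was at 1800 CPM against 3729 to 4715 and the liver type Pfkl at 18.4 CPM against 8.09 to 12.2. Triose phosphate isomerase Tpi1 (27.1 CPM against 68.1 to 112) and phosphoglucose isomerase Gpi (423 against 878 to 1328) were also at their lowest. Hk2, the main muscle hexokinase, was at 191 CPM, above the other CHEMO FO samples (103 to 184) but inside the range of the other groups. The Hk2 to Hk1 ratio went the other way from the pairs above, at 26.2 against 8.84 to 24.0 in the other 18 samples. The platelet-type phosphofructokinase Pfkp (6.91 CPM) lay within the range of the others, and Ldha and Ldhb were both the lowest of the 19.

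Side steps and glycogen genes showed the same unevenness. Glycerol-3-phosphate dehydrogenase Gpd1 was at 199 CPM against 1065 to 1643, muscle fructose bisphosphatase Fbp2 at 14.4 against 57.9 to 120, and the bifunctional regulator Pfkfb1 at 16.4 against 68.1 to 109. Of the 5 glycogen breakdown genes, 4 were at their lowest. Phkg1, the catalytic subunit of phosphorylase kinase, was at 85.7 CPM against 338 to 423, and Phka1, a regulatory subunit, was at 324 against 890 to 1223. Of the 6 glycogen synthesis genes, 2 were at their lowest, with Gys1 at 191 CPM against 461 to 716. Ugp2, which makes UDP-glucose, was the highest of the 19 samples at 660 CPM, and the glycogen-targeting subunit Ppp1r3a (862 CPM) and the priming protein Gyg1 (269 CPM) lay within the range of the others.

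Other genes moved in this library too. The summed level of 8 measured fast fibre markers was 100381 CPM, against at least 147718 elsewhere. That of the muscle genes Acta1, Ckm, Des and Mb was also the lowest of the 19 samples, at 46648 CPM against at least 53899. The 8 macrophage markers summed to 736 CPM, against at most 434. The macrophage list was not raised evenly. Cd163 (273 CPM against 20.8 to 65.4 in the other 18) and Mrc1 (167 against 29.6 to 68.1) carried much of the sum. C1qb (81.1 against at most 54.5), C1qc (88.4 against at most 76.3) and, narrowly, Cd68 (4.91 against at most 4.89) were also the highest of the 19 samples. Csf1r, Adgre1 and C1qa lay within the range of the others. The atrophy ligases Trim63 (2589 CPM against 194 to 415) and Fbxo32 (1865 against 161 to 650), chosen after their values were seen, were the highest of the 19 samples. The part of these differences in the values of the members was not tested.

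**Figure D2:**
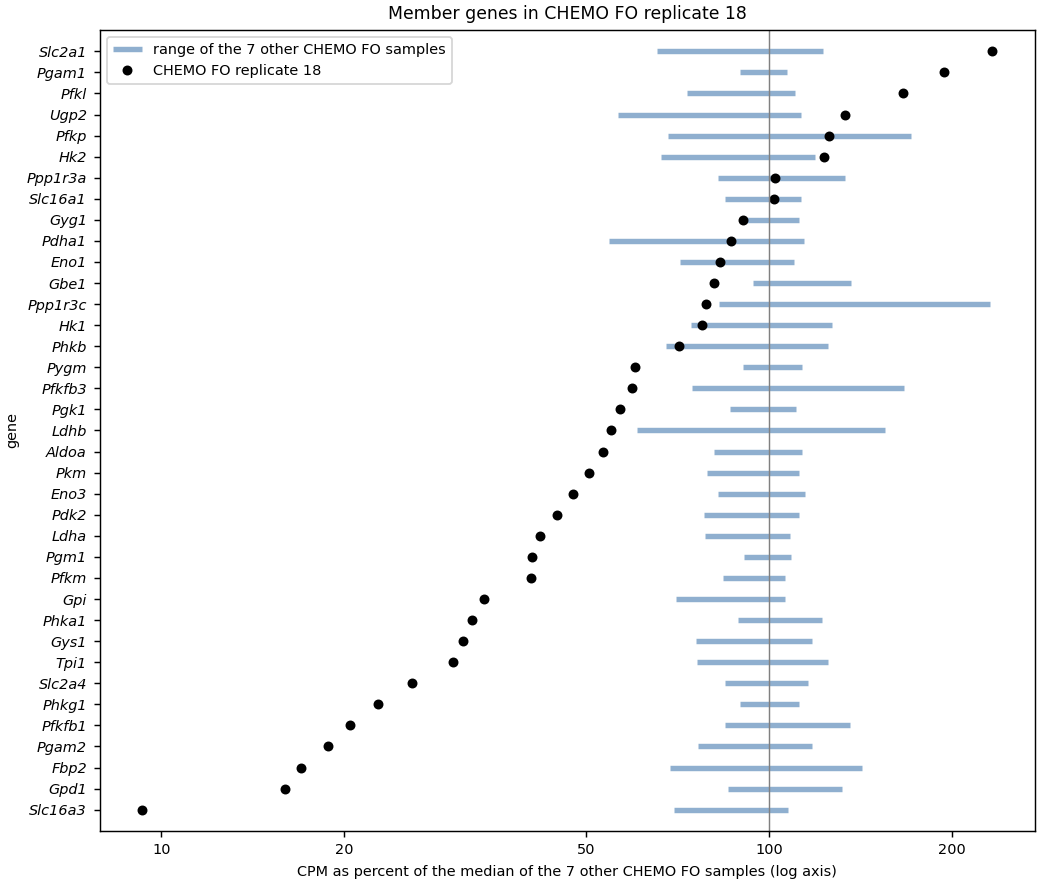
CPM of each member in CHEMO FO replicate 18 (dots) as percent of the median of the 7 other CHEMO FO samples (log axis), with the range of those 7 as bars. Slc16a3, Gpd1, Fbp2 and Pgam2 are lowest, and Slc2a1, Pgam1, Pfkl, Ugp2 and Hk2 lie to the right of their bars.

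The comparison of CHEMO STD with TUMOUR STD asks what chemotherapy is followed by on a standard diet. Of the 37 members, none was called at the study's thresholds (unadjusted p below 0.05 and at least 1.5-fold), where 2.38% of all genes tested were called (0.93% higher and 1.45% lower). At an unadjusted p below 0.05 alone, both hexokinases were at a lower level in CHEMO STD and the glycogen-targeting subunit Ppp1r3c was higher, 3 of 37 members against 6.5% of all genes (1 higher against 2.67%, 2 lower against 3.83%). No gene of any kind passed a Benjamini-Hochberg adjusted p of 0.05, and the smallest adjusted p among the members was 0.719. With DESeq2 the members past the adjusted threshold were also 0. The median log2 fold change of the members was -0.03, against -0.00 for all genes, with 15 above and 22 below 0 (49.7% of all genes were above 0). No member had groups that did not overlap, against 0.495% of all genes.

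Hk2, which phosphorylates glucose in insulin-responsive muscle, was at 141, 193, 201, 156 and 156 CPM in TUMOUR STD and at 95.1 to 160 CPM (median 136) in CHEMO STD. The groups overlapped, with CHEMO STD replicates 1 and 2 and replicate 4 lowest. Its log2 fold change was -0.40 (SE 0.162, p = 0.0212, exact permutation p = 0.0325). It missed p 0.05 when TUMOUR STD 9 or 10, CHEMO STD 1 with 2, or CHEMO STD 4 was left out, with log2 fold changes of -0.35 to -0.33.

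Hk1, the ubiquitous hexokinase, was at 13.2, 10.8, 17.7, 8.41 and 7.98 CPM in TUMOUR STD and at 6.68 to 11.5 (median 7.06) in CHEMO STD. TUMOUR STD replicate 10 was the highest sample and the ranges overlapped. The fitted log2 fold change was -0.51 (SE 0.215, p = 0.0258, exact permutation p = 0.0736), and p 0.05 was missed without TUMOUR STD 10 (-0.31), TUMOUR STD 8 (-0.46) or CHEMO STD 4 (-0.46).

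Ppp1r3c, also called PTG, targets protein phosphatase 1 to glycogen and favours its synthesis. It was at 344, 378, 599, 812 and 449 CPM in TUMOUR STD and at 667 to 917 CPM (median 713) in CHEMO STD. Of the TUMOUR STD samples, replicate 11 reached the chemotherapy range and the other 4 were below every CHEMO STD sample. The log2 fold change was 0.56 (SE 0.253, p = 0.0360, exact permutation p = 0.0303), missing p 0.05 without TUMOUR STD 8, 9 or 12 or CHEMO STD 4 or 5 (0.45 to 0.52).

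Among members that missed the threshold, Slc2a1 had the widest difference, at 3.82, 3.38, 9.42, 3.72 and 5.15 CPM in TUMOUR STD against 1.79 to 6.16 (median 2.18) in CHEMO STD, on as few as 7 counts in a sample. The highest TUMOUR STD value came from replicate 10 and the highest CHEMO STD value from replicates 1 and 2. Its log2 fold change was -0.77 (SE 0.375, p = 0.0512, exact permutation p = 0.0498). It became -1.28 without CHEMO STD 1 and 2, past p 0.05, and -0.41 without TUMOUR STD 10. Those 2 samples also had the highest summed Schwann cell and myelin markers (314 and 331 CPM, against at most 186 elsewhere), and TUMOUR STD 10 had keratinocyte markers at 304 CPM, against at most 70.5. The part of these cells in the Slc2a1 values was not tested.

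Ldhb, the lactate dehydrogenase subunit of oxidative fibres, was at 285, 208, 276, 144 and 269 CPM in TUMOUR STD and 135 to 208 (median 171) in CHEMO STD. All but replicate 11 of TUMOUR STD were at or above the highest CHEMO STD value, and the log2 fold change was -0.44 (SE 0.220, p = 0.0564, exact permutation p = 0.0671). Gys1, the muscle glycogen synthase, was at 444, 587, 762, 542 and 667 CPM against 376 to 528 (median 441). Only TUMOUR STD replicate 8 fell inside the CHEMO STD range, and the log2 fold change was -0.42 (SE 0.225, p = 0.0769, exact permutation p = 0.0260).

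Slow fibre markers differed in the same comparison. All 10 of 10 were lower in CHEMO STD, 2 of them called (Myh7 and Atp2a2), and their summed level was 8520 to 16837 CPM in TUMOUR STD and 6966 to 11602 in CHEMO STD, with no marker at 0. The 8 measured fast fibre markers had a median log2 fold change of 0.13. The part of fibre type in the Hk2 and Ldhb values was not tested.

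Muscle isoforms of lower glycolysis were not separated at p 0.05. Eno3, the muscle enolase, was at 8238, 7980, 8655, 9838 and 9196 CPM in TUMOUR STD and at 8716 to 11939 (median 10781) in CHEMO STD, a log2 fold change of 0.27 (SE 0.174, p = 0.131, exact permutation p = 0.0173). The general enolase Eno1 was at 141, 129, 181, 147 and 179 CPM against 107 to 165 (median 145), a log2 fold change of -0.16 (p = 0.297, exact permutation p = 0.303). The Eno3 to Eno1 ratio was 47.8 to 67.0 in TUMOUR STD and 66.6 to 95.4 in CHEMO STD, so that the ranges met only at their edges. The ratio of Ldha to Ldhb was 8.95 to 22.2 and 13.3 to 23.6.

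The spread behind these fits includes CHEMO FO, because the 3 groups share 1 estimate of the variation between samples. Without CHEMO FO replicate 18 the fold changes of this comparison hardly moved but 7 members were at p 0.05, and over all genes the share at p 0.05 was 8.92%, from 6.5%. Added to Hk2 (-0.40), Hk1 (-0.50) and Ppp1r3c (0.57) were Gys1 (-0.41, SE 0.145), Ldhb (-0.44, SE 0.189), Eno3 (0.28, SE 0.112) and Slc2a1 (-0.75, SE 0.336), the last of them called. The adjusted p of each was 0.550. Other samples also moved this comparison. The share of all genes at p 0.05 was 2.71% without TUMOUR STD replicate 10 and 11.6% without CHEMO STD replicates 1 and 2. Without TUMOUR STD replicate 10, 22 members were above and 15 below 0.

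**Figure D3:**
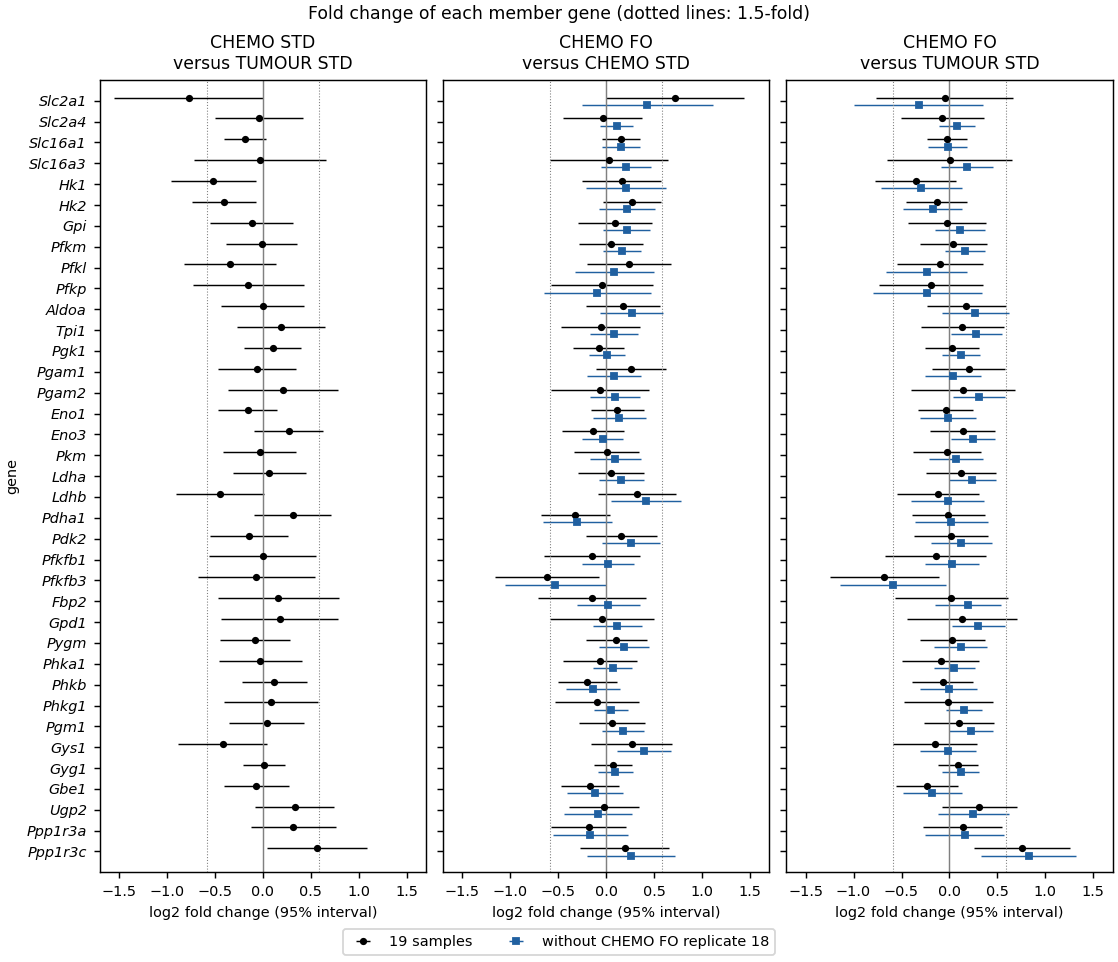
Log2 fold change of each member (rows) with its 95% interval in the 3 comparisons, from all 19 samples (black) and without CHEMO FO replicate 18 (blue, comparisons with CHEMO FO). Dotted lines mark 1.5-fold, and most intervals cross 0.

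The comparison of CHEMO FO with CHEMO STD asks what the fish oil diet is followed by during chemotherapy. Of the 37 members, 2 were called, Pfkfb3 lower and Slc2a1 higher, where 1.66% of all genes tested were called (0.615% higher and 1.05% lower). The same 2 were the members at an unadjusted p below 0.05, against 4.51% of all genes (2.45% higher and 2.06% lower), and the smallest adjusted p of a member was 0.974. The median log2 fold change was 0.03, against -0.01 for all genes, with 20 members above and 17 below 0 (48.7% of all genes were above 0). No member had groups that did not overlap, against 0.0683% of all genes.

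Pfkfb3 makes and breaks down fructose 2,6-bisphosphate, the strongest activator of phosphofructokinase, with activity mainly towards making it. It was at 131 to 540 CPM (median 446) in CHEMO STD and 152 to 424 (median 236) in CHEMO FO. CHEMO STD replicate 3 was the lowest sample of both groups, and 6 of the 8 CHEMO FO samples lay below 290 CPM, the next lowest CHEMO STD value. The log2 fold change was -0.62 (SE 0.262, p = 0.0280, exact permutation p = 0.123), which is 1.53-fold lower in CHEMO FO. Without CHEMO FO replicate 18 it was -0.53 (95% interval -1.06 to 0.00) and no longer called, and the call was also lost without CHEMO STD 1 with 2, 4, 5 or 6 or CHEMO FO 14, 19 or 20 (-0.58 to -0.50).

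Slc2a1 was at 1.79 to 6.16 CPM (median 2.18) in CHEMO STD and 2.81 to 10.0 (median 4.42) in CHEMO FO. CHEMO FO replicate 18 was highest, and all 8 CHEMO FO samples were above the 5 CHEMO STD samples other than replicates 1 and 2. Fitted over all samples, the log2 fold change was 0.72 (SE 0.348, p = 0.0494, exact permutation p = 0.0256). It was 0.43 (95% interval -0.25 to 1.11) without CHEMO FO replicate 18 and 1.25 (SE 0.345) without CHEMO STD replicates 1 and 2, and the call was lost for 11 of the 19 samples left out in turn: TUMOUR STD 11 and 12, CHEMO STD 3 to 7 and CHEMO FO 13, 16, 18 and 20. Of the 4 tested Schwann cell and myelin genes, all were called lower in CHEMO FO (3 of 4 without replicate 18, where Prx was no longer called). By the exact permutation test, 1 of the 4 was below 0.05. The summed level of these markers was 331 CPM in CHEMO STD replicates 1 and 2 and 186 in replicate 7. The other CHEMO STD samples held 50.3 to 85.7 CPM, inside the CHEMO FO range of 43.0 to 86.0. Macrophage markers summed to 736 CPM in CHEMO FO replicate 18, as given above. The part of these cells was not tested.

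The next smallest p-values belonged to Pdha1, Hk2 and Slc16a1. Pdha1, the catalytic subunit of pyruvate dehydrogenase, was at 355 to 588 CPM (median 523) in CHEMO STD and 229 to 479 (median 411) in CHEMO FO, a log2 fold change of -0.32 (SE 0.173, p = 0.0754, exact permutation p = 0.0656), and -0.30 without replicate 18. Hk2 was at 103 to 191 CPM (median 160) in CHEMO FO against the CHEMO STD median of 136, a log2 fold change of 0.27 (SE 0.146, p = 0.0813, exact permutation p = 0.126), and 0.22 without replicate 18. Slc16a1 was at 75.0 to 89.1 CPM (median 84.6) in CHEMO STD and 78.6 to 105 (median 93.8) in CHEMO FO, a log2 fold change of 0.16 (SE 0.0967, p = 0.117, exact permutation p = 0.050), and 0.16 without replicate 18.

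Leaving out CHEMO FO replicate 18 brought other members past p 0.05. Gys1 was at 461 to 716 CPM in the remaining 7 CHEMO FO samples, with only 3 of the 6 CHEMO STD samples inside that range, and its log2 fold change was 0.39 (95% interval 0.12 to 0.67) where it had been 0.26 (SE 0.203, exact permutation p = 0.556) with the library. Ldhb was at 131 to 334 CPM in those 7 samples and its log2 fold change was 0.42 (95% interval 0.05 to 0.78), from 0.32 (SE 0.199, exact permutation p = 0.266). Neither reached 1.5-fold, so that no member was called. In that fit 5.28% of all genes were at p 0.05, and the median over the members became 0.10, against -0.01 for all genes, with 29 of 37 above 0 (48.1% of all genes). Slow fibre markers were higher in CHEMO FO for 9 of 10 in that fit and for 8 of 10 with all samples, none of them called. The part of fibre type in the Ldhb values was not tested.

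**Figure D4:**
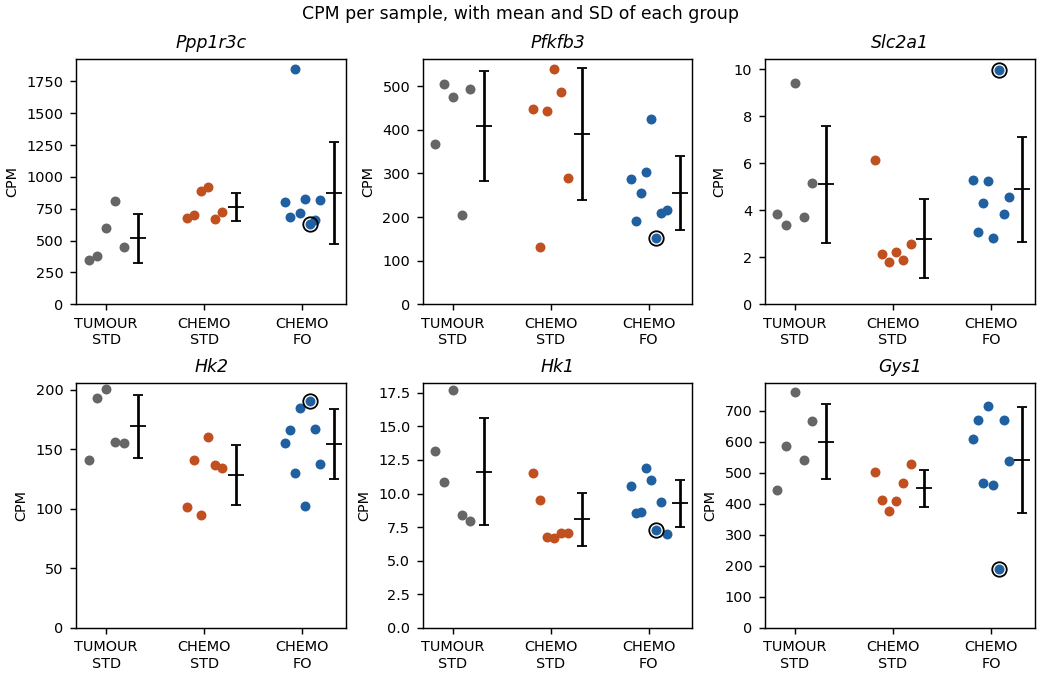
CPM of 6 members in every sample by group, with the mean and SD of each group at the right of its points and CHEMO FO replicate 18 circled. Ppp1r3c has 1 high CHEMO FO sample at 1849 CPM, and the circled sample is the highest for Slc2a1 and the lowest for Gys1.

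The comparison of CHEMO FO with TUMOUR STD sets chemotherapy with fish oil against no chemotherapy. It shares samples with both comparisons above and is not independent of them. Of the 37 members, 2 were called, Ppp1r3c higher and Pfkfb3 lower, where 3.6% of all genes tested were called (1.09% higher and 2.51% lower). These were also the only members at p 0.05 in the fit of all samples, against 9.04% of all genes (3.72% higher and 5.32% lower), and the smallest adjusted p of a member was 0.486. The median log2 fold change was -0.01, against 0.00 for all genes, with 18 members above and 19 below 0 (50.4% of all genes were above 0). No member had groups that did not overlap, against 0.324% of all genes. Slow fibre markers were lower in 10 of 10 here, with 1 called (Myh7, -0.61). Without CHEMO FO replicate 18 they were lower in 9 of 10, and the 1 called was a different gene. It was Csrp3 (-0.76), while Myh7 (-0.51) was no longer called. Macrophage markers went both ways, 5 higher and 3 lower. The 1 called, Cd163 (log2 fold change 1.22), was no longer called without that replicate (0.35, 95% interval -0.15 to 0.84).

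Ppp1r3c was at 344 to 812 CPM in TUMOUR STD, as listed above, and at 631 to 1849 CPM (median 758) in CHEMO FO. CHEMO FO replicate 15 was far above the other 7, which lay between 631 and 826 CPM, and TUMOUR STD replicate 11 was the only sample of its group inside that range. The fit gave a log2 fold change of 0.76 (SE 0.242, p = 0.00466, exact permutation p = 0.0155), which is 1.69-fold. Without CHEMO FO replicate 15 it was 0.52, past p 0.05 but under 1.5-fold, and without CHEMO FO replicate 18 it was 0.83 (95% interval 0.33 to 1.32).

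Pfkfb3 was at 367, 504, 475, 204 and 493 CPM in TUMOUR STD and at 152 to 424 CPM (median 236) in CHEMO FO. Replicate 11 of TUMOUR STD was low and CHEMO FO replicate 17 high, and the other samples of the groups did not overlap. The log2 fold change was -0.68 (SE 0.274, p = 0.0207, exact permutation p = 0.0404). It was -0.59 (95% interval -1.14 to -0.03, still called) without CHEMO FO replicate 18, and the call was lost without TUMOUR STD 9 or 12 (-0.59 and -0.60).

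The 3 next smallest p-values were those of Hk1, Ugp2 and Gbe1. Hk1 was at 6.95 to 11.9 CPM (median 8.98) in CHEMO FO, a log2 fold change of -0.35 (SE 0.202, p = 0.0947, exact permutation p = 0.191), and -0.29 without replicate 18. Ugp2 was at 511, 342, 292, 434 and 402 CPM in TUMOUR STD and 280 to 660 (median 508) in CHEMO FO, a log2 fold change of 0.31 (SE 0.189, p = 0.114, exact permutation p = 0.163), and 0.25 without replicate 18. The glycogen branching enzyme Gbe1 was at 144, 107, 91.2, 125 and 101 CPM against 74.8 to 126 (median 92.0), a log2 fold change of -0.24 (SE 0.155, p = 0.141, exact permutation p = 0.124), and -0.18 without replicate 18.

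Without CHEMO FO replicate 18, 4 further members were higher at p 0.05. They were Pgam2 (0.31, SE 0.133), Gpd1 (0.30, SE 0.132), Eno3 (0.24, SE 0.109) and Tpi1 (0.28, SE 0.127), all of them glycolytic or side-step enzymes and all under 1.5-fold. In that fit 9.00% of all genes were at p 0.05, and the median log2 fold change over the 37 members became 0.11, against 0.00 for all genes, with 25 of 37 above 0 (50.5% of all genes). The smallest adjusted p of a member was then 0.490.

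Of the controlling steps and isoform pairs often followed in muscle, Slc2a4, Pfkm, Pkm, Ldha and Pygm were not past p 0.05 in any comparison, with or without CHEMO FO replicate 18. Slc2a4 was at 454, 463, 471, 469 and 450 CPM in TUMOUR STD, 407 to 474 (median 456) in CHEMO STD and 124 to 555 (median 478) in CHEMO FO. Its coefficient of variation in TUMOUR STD, 1.97%, was the lowest of all members, and log2 fold changes were -0.04, -0.03 and -0.08 in the order of the comparisons above (95% interval -0.50 to 0.42 in the first). Without replicate 18 the last 2 turned to 0.11 and 0.08. Pfkm was at 3298, 4054, 4665, 3657 and 3995 CPM, at 3599 to 4211 (median 3925) and at 1800 to 4715 (median 4349), with log2 fold changes of -0.01, 0.05 and 0.04, the last 2 becoming 0.16 and 0.16 without replicate 18.

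Pkm, the last enzyme of glycolysis, was at 3310, 3710, 5693, 4477 and 5487 CPM in TUMOUR STD, at 3564 to 5226 (median 4409) in CHEMO STD and at 2486 to 5505 (median 4768) in CHEMO FO. Its log2 fold changes were -0.03, 0.01 and -0.03, the last 2 becoming 0.10 and 0.07 without replicate 18. Ldha, the lactate dehydrogenase subunit of fast fibres, was at 2551, 2568, 3168, 3202 and 3728 CPM, at 2758 to 3515 (median 3218) and at 1556 to 4019 (median 3531), with log2 fold changes of 0.07, 0.05 and 0.12, the last 2 becoming 0.16 and 0.24 (95% interval -0.01 to 0.48) without replicate 18. Pygm, which releases glucose 1-phosphate from glycogen, was at 7730, 10710, 13871, 9929 and 12496 CPM, at 9129 to 12926 (median 9969) and at 6914 to 13033 (median 11242), with log2 fold changes of -0.08, 0.11 and 0.03, the last 2 becoming 0.19 and 0.12 without replicate 18. The groups overlapped for each of the 3 genes, and the low end of CHEMO FO was replicate 18.

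Pgam2 was at 2592, 2625, 3283, 3428 and 3713 CPM in TUMOUR STD, at 2777 to 4307 (median 3706) in CHEMO STD and at 724 to 4527 (median 3701) in CHEMO FO. Pgam1 was at 28.8, 22.8, 40.3, 25.6 and 33.5 CPM, at 22.6 to 35.9 (median 27.2) and at 28.1 to 60.9 (median 31.7). Pdk2, a kinase that switches pyruvate dehydrogenase off, was at 150, 210, 310, 193 and 281 CPM, at 182 to 256 (median 198) and at 118 to 294 (median 243). None of the 3 was past p 0.05 in any comparison of all samples, and their 95% intervals reached at most 0.78 in size (Pgam2, first comparison). Against CHEMO STD, CHEMO FO without replicate 18 gave 0.09 for Pgam2, 0.08 for Pgam1 and 0.26 for Pdk2, and against TUMOUR STD it gave 0.31, past p 0.05, 0.03 and 0.12. The remaining members, 16 of the 37, had log2 fold changes between -0.34 and 0.32 in all 3 comparisons and p-values of at least 0.146 there. Without replicate 18 they lay between -0.24 and 0.30 in the comparisons with CHEMO FO.

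**Figure D5:**
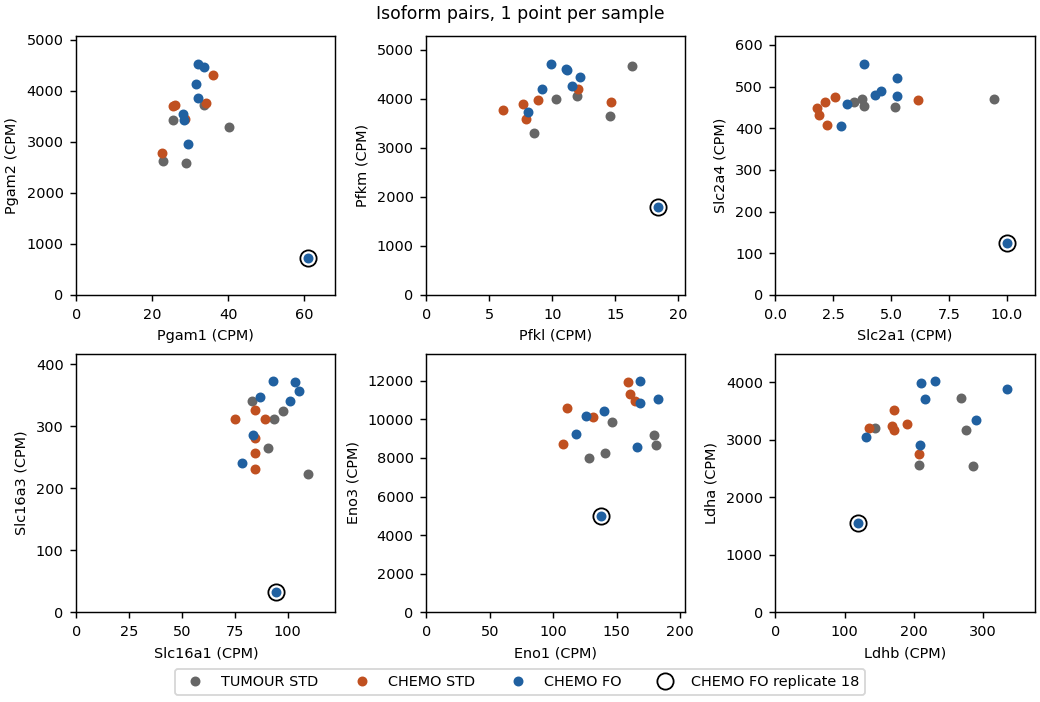
The muscle or fast-fibre isoform (vertical axis, CPM) against the other isoform (horizontal axis, CPM) for 6 pairs, 1 point per sample and CHEMO FO replicate 18 circled. The circled sample lies off the cloud for Pgam2, Pfkm, Slc2a4, Slc16a3 and Eno3. For Ldha and Ldhb it is the lowest sample in both, with a ratio inside the range of the others.

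By role, the counts at p 0.05 in the fit of all samples were spread thinly. The exact permutation test put 6 members below 0.05 in the chemotherapy comparison and 2 in each of the others. Those 6 included 2 transport genes, 1 of lower glycolysis and 2 of glycogen synthesis, with Slc16a1 at an exact permutation p of 0.0238. No share over all genes was computed for that test. The counts by role that follow are from the fit. Of the 4 transport genes, only Slc2a1 was past it, in the fish oil comparison. The hexokinases were the 2 of 8 upper glycolysis genes past it, in the chemotherapy comparison. Of the 6 lower glycolysis genes measured, the 4 of the lactate and pyruvate branch and the 5 of glycogen breakdown, none was at p 0.05 in any comparison of all samples. Of the 4 regulators and side steps, only Pfkfb3 was past it, and of the 6 glycogen synthesis genes only Ppp1r3c.

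Other genes of the same pathways were read from a list of 82, of which 66 were tested. None was called in CHEMO STD versus TUMOUR STD or in CHEMO FO versus CHEMO STD, where 2.38% and 1.66% of all genes were. In the first comparison none was at p 0.05, against 6.5% of all genes. The smallest p-values there were those of Rpe (log2 fold change 0.48), Gaa (-0.28) and Gpd1l (-0.22). Without CHEMO FO replicate 18, 4 pathway genes were past p 0.05 in that comparison, Bpgm (0.28), Rpe (0.48), Epas1 (-0.34) and Gaa (-0.27), where 8.92% of all genes were. In the second, 2 of 66 (3.03%) were higher at p 0.05, against 2.45% of all genes, and none was lower, against 2.06%. Gsk3a, a kinase that inhibits glycogen synthase, was at 26.4 to 41.1 CPM in CHEMO STD and 37.0 to 48.3 in CHEMO FO, a log2 fold change of 0.40 (SE 0.125, p = 0.00390, exact permutation p = 0.00167). Gaa, the lysosomal enzyme that degrades glycogen, was at 98.0 to 150 CPM and 130 to 216, a log2 fold change of 0.37 (SE 0.128, p = 0.00793, exact permutation p = 0.00833). Both ranges overlapped, both genes stayed past p 0.05 in all 28 alternatives, and neither reached 1.5-fold or an adjusted p of 0.05. Pdk3 came next (log2 fold change 0.72) and missed p 0.05. Without CHEMO FO replicate 18, Gsk3a was at 0.42 and Gaa at 0.31, Got1 (0.23), Gpd1l (0.21) and G6pc3 (0.35) were also past p 0.05, and again none was called. Over all genes 5.28% were at p 0.05 in that fit.

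In CHEMO FO versus TUMOUR STD, 1 of the 66 was called, where 3.6% of all genes were. Pdk4, the pyruvate dehydrogenase kinase induced by fasting and fatty acids, was at 126, 135, 70.6, 24.4 and 112 CPM in TUMOUR STD and at 58.3 to 184 CPM in 6 CHEMO FO samples, with 1047 CPM in replicate 17 and 1115 in replicate 18. Those 2 samples were above all others of the 19. Its log2 fold change was 1.89 (SE 0.731, p = 0.0165, exact permutation p = 0.238), 1.42 without replicate 17 and 1.36 without replicate 18, both called. Each of these fits keeps the other high sample and none left out both, so they cannot show a difference apart from those samples. Ppp1r3d, another glycogen-targeting subunit, was lower (-0.39) and Pdhx, a pyruvate dehydrogenase component, was higher (0.24), both past p 0.05 and under 1.5-fold. With Pdk4 they made up 4.55% of the pathway genes tested, against 9.04% of all genes at p 0.05. Ppp1r3d missed p 0.05 without TUMOUR STD 10, 11 or 12 or CHEMO FO 17, 18, 19 or 20 (-0.39 to -0.24), and Pdhx without TUMOUR STD 9, 10 or 12, CHEMO STD 3, 4, 6 or 7 or CHEMO FO 14, 15, 17, 19 or 20 (0.19 to 0.25). When CHEMO FO replicate 18 was left out, the pathway genes higher at p 0.05 were Pdk4, Pdhx (0.26), Bpgm (0.32), Pc (0.35) and Slc2a12 (0.31), of which only Pdk4 was called. Over all genes 9.00% were at p 0.05 in that fit, in either direction.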

How the data were processed

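The authors trimmed reads with Trim Galore 0.4.1, aligned them to Rnor 6 with TopHat 2.0.10 and Bowtie2, and deposited raw integer counts per gene. Counting settings were not given in the sources used here. Members with pseudogenes or close copies (Aldoa, Tpi1, Pgk1, Pgam1, Eno1, Pkm, Ldha) are less certain. Rows with no gene name (388, 0.102% to 0.272% of counts) were left out. Counts of CHEMO STD replicates 1 and 2 were summed. Genes were kept with edgeR 4.0.16 in R 4.3.3 (minimum count 10, minimum total 15), scaled by TMM and fitted in 1 quasi-likelihood model of 3 groups with no covariate, and p-values were adjusted over the 11716 genes tested. Exact tests were two-sided, on mean log2 CPM (prior count 2). Alternatives used RLE factors or library totals, other filters, DESeq2 1.42.0, limma 3.58.1 voom, 2 groups only, replicates 1 and 2 apart, and each sample left out. The fit was tested on simulated data.

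The members and lists were chosen with earlier results of these data known. By rule, values are given for members at p below 0.05, the 5 smallest p per comparison, and named controlling steps and isoform pairs, with other members summarised. Pathway genes were named where called, or the 3 with the smallest p. Figures used matplotlib 3.10.9.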

Additional observations from a re-analysis of the deposited data

Results flagged for a closer look

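Within a group, the sample farthest from the others was compared with Dixon's 95% limit, which chance passes in about 1 of 20 groups. Of 111 combinations of member and group, 21 (18.9%) passed it, and 15 of these were CHEMO FO replicate 18. It was lowest there for Slc2a4 (124 CPM), Slc16a3 (32.3), Pfkm (1800), Pgk1 (906), Pgam2 (724), Ldha (1556), Pfkfb1 (16.4), Gpd1 (199), Pygm (6914), Phka1 (324), Phkg1 (85.7) and Pgm1 (795), and highest for Slc2a1 (10.0), Pfkl (18.4) and Pgam1 (60.9).

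CHEMO STD replicates 1 and 2, taken as 1 sample, were highest of their group for Slc2a1 (6.16 CPM) and lowest for Slc16a1 (75.0). TUMOUR STD replicate 8 was lowest for Gpi (891 CPM) and TUMOUR STD replicate 10 highest for Pfkp (12.2). In CHEMO FO, replicate 16 was lowest for Pdha1 (229 CPM) and replicate 15 highest for Ppp1r3c (1849).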

How the results depend on the processing

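The paper assigned rats at random to the 3 arms and no label pairs samples across groups, so no paired analysis was run. No named gene past a threshold changed direction in the alternatives run, and no member passed an adjusted p of 0.05 in any of them, DESeq2 included. The median over the members moved by less than the spread between samples in all of them, changing sign in some. That spread (SD 0.223 in log2 CPM) includes CHEMO FO replicate 18, so it cannot judge the fit without that replicate. In CHEMO FO versus CHEMO STD the median went from 0.03 to 0.14 with voom (26 members above 0 and 11 below). It was 0.10 without that replicate (29 above and 8 below), with -0.01 over all genes in each of these fits. In CHEMO STD versus TUMOUR STD, members at p 0.05 numbered 3 (6.5% of all genes), and 4 with DESeq2 (6.85%) or library totals (5.52%), 5 with no filter (7.34%), 8 with voom (9.03%) and 6 with 2 groups in the fit (7.77%). Members called there numbered 0, and 1 with library totals, no filter or DESeq2 and 2 with voom. Pathway genes called there were 0, and 1 with no filter. In CHEMO FO versus CHEMO STD, members at p 0.05 numbered 2 (4.51%), and 8 with voom (11.4%). Members called were 2, and 1 with replicates 1 and 2 apart or with voom, and pathway genes called were 0, and 1 with no filter. In CHEMO FO versus TUMOUR STD, members at p 0.05 numbered 2 (9.04%), and 4 with voom (9.74%). Members called were 2, and 1 with voom, and pathway genes called were 1, and 0 with voom. Voom weights samples by quality.

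With each sample left out in turn, the median was -0.06 to 0.06, -0.01 to 0.10 and -0.03 to 0.11 in the same order of comparisons. Members at p 0.05 were 0 to 7, 0 to 3 and 1 to 6, members called 0 to 3, 0 to 2 and 1 to 2, and pathway genes called 0 to 1, 0 to 1 and 1. Over all genes, 279, 195 and 422 were called, and 161 to 971, 153 to 722 and 273 to 1116 across the alternatives. DESeq2 alone put genes past an adjusted p of 0.05 in CHEMO FO versus TUMOUR STD (11, no member). Slc2a1 rests on as few as 7 counts in a sample, where counting error is large.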

Other observations

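The spread of the members between samples was set apart in CHEMO FO by 1 library. The median coefficient of variation over the 37 members was 16.5% in TUMOUR STD, 14% in CHEMO STD and 24.9% in CHEMO FO, and 14.8% in CHEMO FO without replicate 18. Over all genes it was 22.6%, 20.4% and 25.3%, and 21.2% without replicate 18. The difference from all genes was smaller or reversed among genes with a mean of at least 100 CPM. There it was 16.1%, 13.8%, 23.7% and 13.7% for 28 members, in the same order, and 17.4%, 13.3%, 19.3% and 13.2% for 1146 genes. The steadiest members were Slc2a4 in TUMOUR STD (1.97%), Pfkm in CHEMO STD (5.24%) and Gyg1 in CHEMO FO (7.57%), and the most variable in each group was Slc2a1 (49.2%, 60.0% and 46.1%).

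The same library held 727 CPM of the metallothionein Mt2A, against 0.612 to 11.1 in the other 18 samples, and 77.4 CPM of the stress gene Gadd45a, against 5.15 to 12.7. Both genes were chosen after their values were seen. The ratio of Slc16a3 to Slc16a1 was 0.341 there and 2.03 to 4.15 in the others, that of Slc2a4 to Slc2a1 was 12.4 against 49.9 to 251, and that of Ldha to Ldhb was 13.1, within 8.95 to 23.6.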
